A study of Mus musculus with 10 samples.

Results

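The cells described here are the monocytes found among CD45+ cells sorted from whole mouse brain, taken as every cell that the deposited cell annotation names Mono. Of 45472 annotated cells in 10 libraries, 149 carried that name, and none of them was listed in the separate annotation of microglia. They made up a small part of the 4925 cells that were not microglia. The same annotation named 138 non-classical monocytes (Mono NC), 725 border-associated macrophages (BAM), 382 border-associated macrophages marked by Lyve1 (BAM Lyve1), 189 type 2 conventional dendritic cells (cDC2) and 102 plasmacytoid dendritic cells (pDC), beside 40547 microglia.

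Monocytes arise in the bone marrow and travel in the blood. Classical monocytes, which carry Ly6C and the chemokine receptor Ccr2 in mice, can leave the vessels and become macrophages or dendritic cells in tissue, whereas non-classical monocytes lose Ly6C, depend on the nuclear receptor Nr4a1 and patrol the vessel wall. In the healthy brain, microglia and most border macrophages are long-lived and are kept up with little input from the blood, so a monocyte in a brain preparation can come from the vessels, the meninges, the choroid plexus or the tissue itself.

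The experiment was made to ask if loss of Nlrp3 changes how microglia respond to amyloid, and monocytes were captured by the same sort. The 4 genotypes were WT, a constitutive full-body Nlrp3 deletion (NLRP3.KO in the labels, Nlrp3KO here), APP/PS1, and APP/PS1 on the deleted background (APP/PS1 NLRP3.KO, here Nlrp3KO APP/PS1). Each was collected at 3 and 9 months of age, and WT and Nlrp3KO also at 6 months. Each of the 10 groups was 1 library from littermates, and held the cells of 3 pooled mice, 2 of them male and 1 female, so that no value for a single animal exists. The APP/PS1 transgenes, Swedish-mutant APP and a mutant human presenilin-1, are driven in neurons and not by a monocyte promoter. Whole brains were dissociated with actinomycin D, which blocks new transcription, so the position of a cell within the brain is unknown. Each of the 3 deposited batch numbers held 1 age, and a difference by age cannot be told apart from one by batch.

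Nlrp3 (chr11:59541568-59566956, plus strand, GRCm38/mm10) matched the labels in monocytes. Its level, in counts of unique molecular identifiers (UMIs, each standing for 1 captured transcript) scaled to a common total (CPM), was 25.5, 34.9, 30.6, 34.1 and 23.6 in WT 3 m, APP/PS1 3 m, WT 6 m, WT 9 m and APP/PS1 9 m. The 5 Nlrp3KO libraries held 0 Nlrp3 UMIs among 727343 monocyte UMIs, which allows up to 4.12 CPM, against 29 UMIs in the 5 libraries with the gene.

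The monocytes were few in every library. There were 14, 5, 15 and 46 cells in WT, Nlrp3KO, APP/PS1 and Nlrp3KO APP/PS1 at 3 months, 40 and 12 in WT and Nlrp3KO at 6 months, and 3, 5, 8 and 1 in the 4 genotypes at 9 months. Their summed counts ran from 8727 to 523254 UMIs per library (median 101096), so a count of 0 allows between 5.73 and 344 CPM depending on the library. The median monocyte held 10785 UMIs, more than the 3978 to 5985 of the median microglia, and the smallest monocyte held 1871. Whole libraries held 2223 to 9112 cells and 12440818 to 40682967 UMIs. A doublet score above 0.5 was carried by 10 monocytes (6.71%), of which 7 were in Nlrp3KO APP/PS1 3 m and 3 in WT 6 m. Among all cells that were not microglia, monocytes included, the share was 7.09%. Among the 246 barcodes seen in more than 1 library, 1 belonged to a monocyte.

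The 4 genes given for these cells were present throughout. Ly6c2 (chr15:75108158-75111970, minus strand), which encodes a form of the surface protein Ly6C, stood at 545 CPM in the lowest library, 1882 in the median and 2513 in the highest. Ccr2 (chr9:124101950-124113557, plus strand), the receptor that lets monocytes leave the marrow, ran from 881 through 1367 to 1968 CPM. Plac8 (chr5:100553725-100572245, minus strand) ran from 622 through 3124 to 4148 CPM, and its lowest library was Nlrp3KO 9 m. Chil3 (chr3:106147554-106167564, minus strand), which encodes the chitinase-like protein Ym1, ran from 482 through 1101 to 3327 CPM, with WT 6 m highest. No library of monocytes lacked any of the 4. Ly6c2 and its neighbour Ly6c1 are near-identical, so reads shared by both are uncertain, and Ly6c1 itself had 2 UMIs in all monocytes.

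Single cells gave the same picture. All 149 monocytes held a Plac8 UMI, 96.0% a Ccr2 UMI, 89.9% a Ly6c2 UMI (95% exact interval 83.9 to 94.3) and 66.4% a Chil3 UMI. After thinning each cell to 1500 UMIs these shares were 91.3, 77.9, 73.8 and 47.0%. In Mono NC cells, whose median depth was 5572.5 UMIs, 4.35% held Ly6c2 and 18.8% Ccr2, or 1.45 and 6.52% after thinning. B cells, which should lack Chil3 and Ccr2 and held a median of 4671 UMIs, gave 0% for Chil3, 0.938% for Ccr2 and 4.13% for Ly6c2. Plac8 was not absent from them, at 67.7% (41.1% after thinning). T cells, with a median of 5810 UMIs, gave 40.1% for Ly6c2, 29.7% for Ccr2, 22.3% for Plac8 and 0.313% for Chil3. After thinning, Ly6c2 was in 27.2% and Ccr2 in 14.7% of T cells. All 4 genes were found together in 91 monocytes (61.1%), 3 of them in 48, 2 in 7 and 1 in 3. Among Mono NC cells all 4 were found in 1 of 138.

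The types that helped define one another are described side by side and not tested. In the 5 libraries with at least 10 cells of each type (WT, APP/PS1 and Nlrp3KO APP/PS1 at 3 months, WT and Nlrp3KO at 6 months), a gene was counted as higher or lower when its CPM, after adding 1, differed at least 2-fold in all 5. By that count, 1.55% of 8024 genes were higher in Mono than in Mono NC and 2.31% lower. Against BAM the shares were 2.6% higher and 3.78% lower of 8119 genes. Against BAM Lyve1 they were 4.99 and 7.66% of 8563, against cDC2 2.26 and 2.07% of 7954, and against microglia 7.41 and 14.3% of 8934. The list counts below are to be read beside these shares, and the cells' names already rest on many of the same genes.

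**Figure D1:**
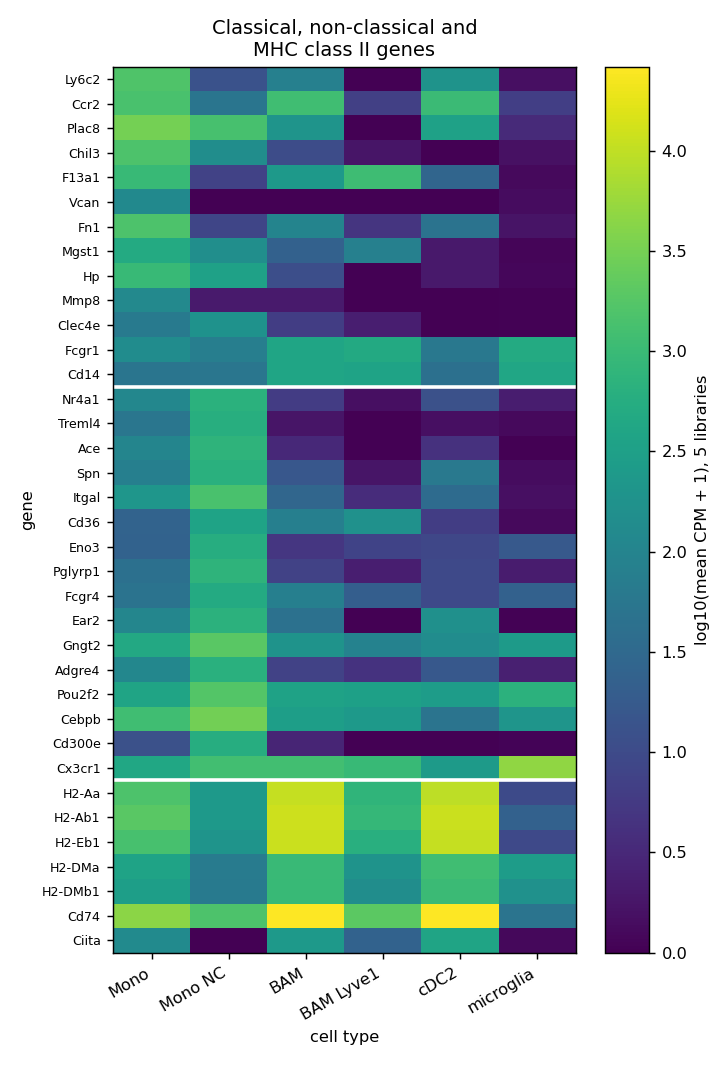
Mean level of each gene (rows, grouped from top to bottom as 12 classical genes with Plac8, non-classical genes and MHC class II genes) in 6 cell types (columns), as log10 of mean CPM + 1 over the 5 libraries with at least 10 cells of each type. Monocytes are bright in the upper block (Ly6c2 1570 CPM), Mono NC cells in the middle block (Itgal 1389 CPM), and BAM and cDC2 in the lower block (Cd74 25777 and 26295 CPM).

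Of 13 classical genes, 9 were higher in Mono than in Mono NC in all 5 libraries, among them Ly6c2, Ccr2, Chil3, F13a1, Vcan, Fn1, Mgst1 and Mmp8. None was lower in all 5. The median log2 ratio over the list was 4.71, beside -0.16 over all genes. Mean Ly6c2 was 1570 ± 469 CPM (SD, n = 5) in Mono and 12.2 ± 16.8 in Mono NC, and Ccr2 was 1442 ± 302 against 51.8 ± 7.29. Fn1, which encodes the matrix protein fibronectin, stood at 1521 ± 457 CPM against 7.47 ± 10.3. F13a1, the A chain of coagulation factor XIII, stood at 967 ± 278 against 6.52 ± 5.96. Vcan, which encodes the proteoglycan versican, was at 125 ± 95.7 CPM in Mono and had no UMI in Mono NC in any library. Outside the 9, medians over the 10 libraries were higher in Mono for Hp and Fcgr1, and higher in Mono NC for Clec4e and Cd14. Clec4e was at a median of 36.96 CPM in Mono and 194.1 in Mono NC, and in 12.1 and 23.2% of cells after thinning. Cd14 was at 14.9 and 39.1 CPM. The 5 Mono libraries at 0 each held under 10 monocytes, where a 0 allows 35.5 to 344 CPM. A Cd14 UMI was in 29.5% of Mono and 15.9% of Mono NC cells, or 5.37 and 5.80% after thinning.

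The same list set the monocytes apart from dendritic cells and microglia, with exceptions. Against cDC2, 9 of 13 classical genes were higher and none lower, with a median log2 ratio of 6.25 (5.73 when the 4 genes at 0 in cDC2 are placed at the limit of 3 UMIs) beside 0.10 over all genes. Ccr2 was not among the 9. It reached 1021 ± 247 CPM in cDC2 and was above it in Mono in 4 of 5 libraries. Against microglia, 11 were higher and 2 lower, with a median of 7.68 beside -0.45. The 2 lower genes were Fcgr1, which encodes the high-affinity IgG receptor CD64, and Cd14, the co-receptor for bacterial lipopolysaccharide. Fcgr1 stood at 137 ± 44.6 CPM in Mono and 494 ± 12.5 in microglia, and Cd14 at 51.8 ± 18.2 and 411 ± 22.5. In pDC, pooled over all libraries, Ly6c2 stood at 1600 CPM and Plac8 at 2620, so these 2 markers did not separate monocytes from that dendritic type.

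Border macrophages shared some of the classical genes. Against BAM, 9 of 13 were higher and Fcgr1 and Cd14 lower, with a median log2 ratio of 4.70 beside 0.07. Ccr2 was at 1161 ± 215 CPM in BAM, above which Mono lay in 4 of 5 libraries, and 62.8% of BAM cells held a Ccr2 UMI at a median depth of 6154. Ly6c2 was at 83.2 ± 88.9 CPM in BAM. In BAM Lyve1, by contrast, Ly6c2 had no UMI in any library and Ccr2 was at 5.88 ± 6.37 CPM, while F13a1 was at 1094 ± 192, close to the 967 ± 278 of Mono. Genes that mark border macrophages were nearly absent from monocytes. Their summed level over 10 genes ran from 0 to 128 CPM over the 10 monocyte libraries, against 1652 to 3516 in BAM and 10618 to 13309 in BAM Lyve1.

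Non-classical genes ran the other way. Of 16, 14 were lower in Mono than in Mono NC in all 5 libraries and none higher, with a median log2 ratio of -3.56 beside -0.16 over all genes. Nr4a1 (chr15:101254269-101274795, plus strand), on which non-classical monocytes depend, was at 108 ± 97.5 CPM in Mono and 659 ± 76.3 in Mono NC. Treml4 stood at 53.8 ± 58.0 against 585 ± 196, Ace (angiotensin-converting enzyme) at 102 ± 134 against 750 ± 116, and Itgal (the integrin LFA-1 alpha chain) at 209 ± 123 against 1389 ± 262. The 2 genes outside the 14 were Cebpb, which encodes a transcription factor of myeloid cells, at 1158 ± 276 against 3044 ± 278, and Cx3cr1, the fractalkine receptor, at 423 ± 186 against 1196 ± 226.

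Monocytes still held more of some of these genes than the resident cells did. Spn, Itgal and Cebpb were higher in Mono than in BAM in all 5 libraries, Itgal and Cebpb higher than in cDC2, and 7 of the 16 higher than in microglia, where only Cx3cr1 was lower (4914 ± 473 CPM in microglia). Nr4a1 was at 5.15 ± 4.28 CPM in BAM and 1.24 ± 0.719 in microglia.

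The spread within monocytes was wide. Over the 10 libraries Nr4a1 ran from 0 through 33.6 to 247 CPM, with 3 libraries at 0, all at 9 months. The 9-month libraries held 1 to 8 monocytes each, and a 0 there allows 35.5 to 344 CPM. In single cells, 28.9% of monocytes held a Nr4a1 UMI (14.8% after thinning) against 92.0% of Mono NC cells (60.1%). The classical genes took a median of 0.874% of a monocyte's UMIs (range 0 to 2.62) and the non-classical genes 0.213% (0.0122 to 1.39). In Mono NC cells the medians were 0.0731% and 1.63%.

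**Figure D2:**
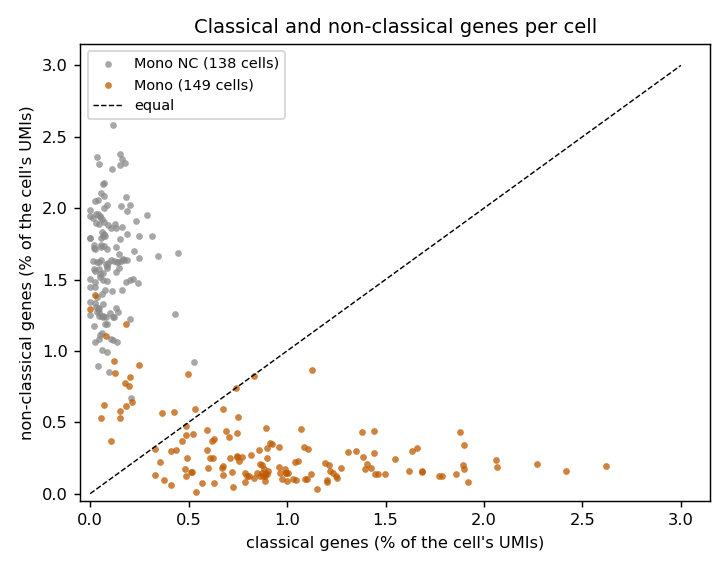
Each point is 1 cell, placed by the percent of its UMIs on the 13 classical genes (horizontal) and on the 16 non-classical genes (vertical), with 149 Mono cells in orange, 138 Mono NC cells in grey and a dashed line where both are equal. All 138 Mono NC cells lie above the line, and 21 Mono cells lie above it with them.

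By that measure 127 monocytes held more of the classical genes, 21 more of the non-classical genes and 1 equal amounts. Those 21 came from WT (6 cells), Nlrp3KO (2), APP/PS1 (7) and Nlrp3KO APP/PS1 (4) at 3 months and from WT at 6 months (2), with none at 9 months. They did not all resemble Mono NC cells in other genes. Their MHC class II genes, which present antigen to CD4+ T cells, took a median of 1.60% of UMIs, against 0.0465% in the other 128 cells, and 13 of the 21 were at 1% or more. No cell of the 21 was below 0.367% for the non-classical genes, and none was above 0.531% for the classical genes.

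A further list held 16 genes of both monocyte kinds. Against Mono NC, 6 were higher in Mono (Ms4a4c, S100a4, S100a6, Lgals3, Vim and Lyz2) and Clec4a1 was lower. Against BAM 11 were higher, against cDC2 7, and against microglia 15, and none was lower in any of the 3. Lyz2, which encodes lysozyme, stood at 34506 ± 5383 CPM in Mono, 13263 ± 1921 in Mono NC, 15936 ± 1860 in BAM, 2005 ± 994 in cDC2 and 437 ± 71.2 in microglia. Plac8 belongs to this list and was at 3137 ± 726 in Mono and 1358 ± 328 in Mono NC. Ifitm3, an interferon-induced membrane protein, was at 4171 ± 508 and 3161 ± 688.

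MHC class II genes were lower in Mono than in the antigen-presenting cells and varied widely between libraries. Of 7, 4 were lower in Mono than in BAM and 5 lower than in cDC2 in all 5 libraries. Only Ciita, the master regulator of the class, and H2-DMa were higher than in Mono NC in all 5. In WT 6 m the order was turned for H2-Eb1, at 3.82 CPM in Mono and 777 in Mono NC. Over single cells, the list took a median of 0.0534% of UMIs in Mono and 0.0568% in Mono NC. Cd74, the invariant chain, was at 6889, 9842, 2409, 321 and 2563 CPM in WT 3 m, APP/PS1 3 m, Nlrp3KO APP/PS1 3 m, WT 6 m and Nlrp3KO 6 m. Those 5 values spanned a wide range in Mono, while Cd74 was 25777 ± 1792 in BAM and 26295 ± 2632 in cDC2. Markers of conventional dendritic cells were low. Zbtb46 and Xcr1 had no UMI in Mono in these libraries, Flt3 was at 13.3 ± 9.58 CPM against 87.7 ± 36.4 in cDC2, and Cd209a at 44.8 ± 49.3 against 1335 ± 187.

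Transcription factors and receptors gave smaller contrasts. Of 13 factors, only Nr4a1 differed from Mono NC in all 5 libraries. Against BAM, Klf4 and Cebpb were higher, and 2 factors were lower, among them Maf, a factor of macrophage identity. Maf was at 61.7 ± 38.8 CPM in Mono, 626 ± 162 in BAM and 1000 ± 41.0 in microglia. Csf1r, the receptor on which tissue macrophages depend, was at 529 ± 246 CPM in Mono, 1379 ± 213 in Mono NC, 1194 ± 124 in BAM and 3413 ± 193 in microglia. Among 15 chemokine receptors and adhesion molecules, 2 were higher in Mono than in Mono NC, Ccr2 among them, and Itgal, Itga4, Itgb1 and Spn were lower.

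RNA of microglia was present at a low level. Summed over 10 microglial markers, monocytes held 2.39 to 4.38% of the level of microglia in the same library (median 2.98), which lay below the 6.61 to 7.70% of B cells and beside the 3.33 to 4.82% of T cells, 2 types that do not express these markers. P2ry12, a receptor of resting microglia, was at 87.8 ± 119 CPM in Mono and 3239 ± 407 in microglia. Over all 10 libraries, the summed markers of dendritic cells ran from 11.8 to 206 CPM in monocytes, those of neutrophils from 59.1 to 238, those of T and NK cells from 0 to 21.9, those of B cells from 0 to 67.8 and those of red cells and endothelium from 0 to 102. Csf3r, which is on the neutrophil list, alone ran from 50.8 to 229 CPM in Mono and from 51.1 to 211 in Mono NC. Ly6g, which defines neutrophils, had no UMI in Mono in any of the 10 libraries. The part of these transcripts in any result was not tested.

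Monocyte genes were ranked by their smallest ratio over BAM, BAM Lyve1, cDC2 and microglia, with pDC and neutrophils left out. The 15 leading genes were Ighg2b, Igkc, Slpi, Chil3, Vcan, Jchain, Hp, Cd177, Mmp8, Prtn3, Iglc2, Treml4, F10, Plcb1 and Ace. Several are genes of granules or of blood proteins. Slpi, an inhibitor of neutrophil elastase, was at 249 ± 116 CPM in Mono, Hp (haptoglobin) at 939 ± 327 and Prtn3 (proteinase 3) at 121 ± 80.2. Slpi had 21.7 CPM in Mono NC and Prtn3 none. The immunoglobulin genes among the 15 came from 1 cell of Nlrp3KO APP/PS1 3 m. That cell held 16728 immunoglobulin UMIs of 38725 (43.2%), or 98.1% of all those in monocytes, together with 28 Ly6c2 UMIs and a doublet score of 0.0135. Without it monocytes held 198 CPM of these genes. In a ranking against Mono NC added after the data were seen, the 10 leading genes were Igkc, Ighg2b, Jchain, Fn1, Ciita, F13a1, Vcan, Prtn3, Ly6c2 and Itga1, and the 10 with the lowest ratio were Ptgds, Cd300e, Dusp16, Fabp4, Eno3, Pparg, Dusp5, G0s2, Lilra5 and Tgm2.

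Monocytes were next ordered by their own Ly6c2 count after thinning to 1500 UMIs, which gave 39 cells with 0, 35 with 1, 35 with 2 to 3 and 40 with 4 or more. Non-classical genes summed to 4134, 3156, 2323 and 1918 CPM over these 4 bins, and MHC class II genes to 13380, 11937, 2128 and 1805. Both were lower in cells with more Ly6c2. Treml4 went from 99.6 to 1.87 CPM between the end bins and Nr4a1 from 120 to 35.6. Ccr2 did not follow the order, at 1095, 1561, 1624 and 1297 CPM. Cell cycle genes summed to 189, 311, 964 and 1475 CPM, and 5 genes of granule formation in young myeloid cells (Prtn3, Elane, Mpo, Ctsg and Ms4a3, a list added after the data were seen) to 48.5, 67.1, 142 and 656. The bins differ in their libraries: cells of WT 6 m numbered 6, 7, 14 and 13, and cells of APP/PS1 3 m 5, 7, 1 and 2.

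Small sets of cells stood behind these sums, cut by thresholds set after the data were seen. At least 3 UMIs of Mki67, Top2a, Birc5, Cdk1 and Ccnb2, genes of dividing cells, were held by 24 monocytes (16.1%, exact interval 10.6 to 23.0). Their Ly6c2 level was 2957 CPM against 1431 in the others, and their median depth 14465.5 UMIs against 10410. At least 3 UMIs of the granule genes were held by 30 cells (20.1%, 14.02 to 27.5), with Ly6c2 at 2528 against 1472 CPM and a median depth of 14667 against 9934 UMIs. A cut at 3 UMIs is passed more easily by deeper cells, and the part of depth in both sets was not tested. Both held in 15 cells. The last set was 27 cells (18.1%, 12.3 to 25.3) with MHC class II genes at 1% of UMIs or more. In these Ly6c2 was at 987 against 1909 CPM, and Cd209a, a lectin of monocyte-derived dendritic cells and cDC2, at 201 against 8.48. None of the 149 cells belonged to both the dividing and the MHC class II set, which allows a share of up to 2.45% (exact interval).

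The sets were spread unevenly over libraries. WT 6 m, with 40 monocytes, held 7 dividing cells, 13 with granule genes and none with high MHC class II. Nlrp3KO APP/PS1 3 m, with 46, held 6, 8 and 8. APP/PS1 3 m, with 15, held 1, 2 and 8. Nlrp3KO 9 m held 3 dividing cells among 5. WT 6 m was also the library with 26 of the 50 cells annotated Precursors and 29 of the 79 neutrophils, and Nlrp3KO APP/PS1 3 m held 31 neutrophils. Their part in these counts was not tested.

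The first comparison over genotypes was the share of monocytes among all cells. At 3 months it was 0.185% in WT (exact interval 0.101 to 0.310), 0.0801% in Nlrp3KO, 0.446% in APP/PS1 and 0.505% in Nlrp3KO APP/PS1. At 6 months it was 0.949% in WT (0.678 to 1.29) and 0.285% in Nlrp3KO. At 9 months it was 0.116, 0.172, 0.264 and 0.0450% in the same order of genotypes, the last from 1 cell (0.00114 to 0.250). Intervals cover counting error only, and in each group the share is that of 1 pool.

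**Figure D3:**
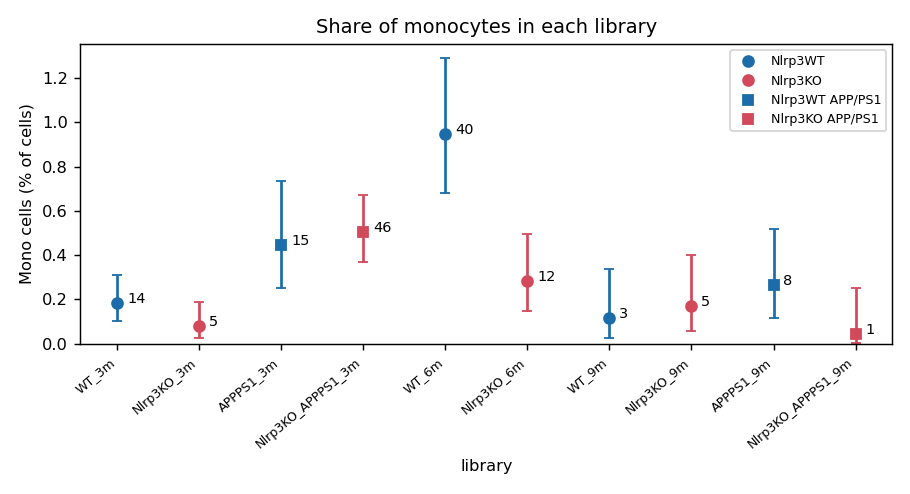
Percent of each library's cells annotated Mono (vertical axis) for the 10 libraries (horizontal axis), with 95% exact binomial intervals as bars and the number of Mono cells beside each point. Colour gives the Nlrp3 genotype and squares the APP/PS1 libraries. WT 6 m stands highest at 0.949%, and the other 9 libraries lie between 0.0450 and 0.505%.

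No difference in share passed its test. Taking Nlrp3KO minus Nlrp3WT over 5 pairs of the same age and background, the mean was 0.217% against 0.392%, a difference of -0.175 percentage points (SD 0.297), with 2 pairs higher and 3 lower (exact permutation p = 0.3125, smallest possible 0.062). APP/PS1 minus non-diseased libraries gave 0.315% against 0.138%, a difference of 0.177 (SD 0.232) with 3 of 4 pairs higher (exact permutation p = 0.25, smallest possible 0.12). For 9 against 3 months the means were 0.149% and 0.304%, a difference of -0.155 (SD 0.232) with 1 of 4 genotypes higher (exact permutation p = 0.375). Adjusted over the 3 comparisons, each p was 0.375. Leaving out 1 pair moved the Nlrp3KO difference between -0.233 and -0.0523, the latter without the 6-month pair that holds WT 6 m. It moved the APP/PS1 difference between 0.0940 (without the 3-month Nlrp3KO pair) and 0.278 (without the 9-month Nlrp3KO pair), and the age difference between -0.237 (without Nlrp3KO) and -0.0534 (without Nlrp3KO APP/PS1). Designs of 4 or 5 pairs cannot go below 0.05. Over Mono and Mono NC cells together, the share of Mono ran from 32.0 to 66.7% (median 49.7), and the APP/PS1 difference then turned to -8.79 percentage points.

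Next, the summed classical and non-classical levels were compared in monocytes of each genotype. Classical genes summed to 7366, 6909, 5872 and 8421 CPM in WT, Nlrp3KO, APP/PS1 and Nlrp3KO APP/PS1 at 3 months. They summed to 12147 and 12076 in WT and Nlrp3KO at 6 months, and to 6303, 9392, 8402 and 9740 in the 4 genotypes at 9 months. The 2 libraries of 6 months were the highest and did not overlap the others. Non-classical genes summed to 5350, 2908, 4517 and 2757 CPM at 3 months, 2228 and 1904 at 6 months and 3339, 647, 2068 and 1031 at 9 months. In each of the 5 pairs the Nlrp3KO library was the lower one.

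**Figure D4:**
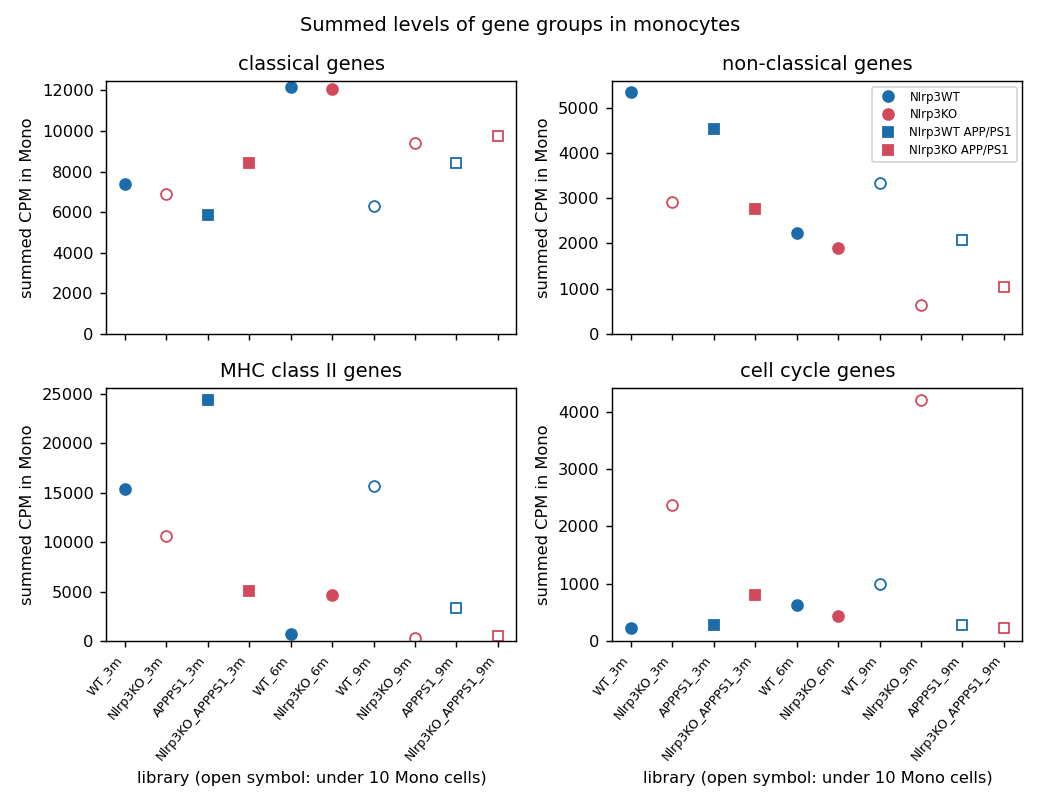
Summed CPM of 4 gene groups in the monocytes of each library (one panel a group, vertical axes from 0), with Nlrp3KO in red, APP/PS1 as squares and open symbols for libraries with under 10 monocytes. Non-classical sums run from 647 to 5350 CPM and MHC class II sums from 279 to 24380, and the highest cell cycle sum, 4214, comes from 5 cells of Nlrp3KO 9 m.

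With at least 10 monocytes in both libraries, 2 pairs remained for Nlrp3, and the non-classical sum gave a log2 difference of -0.47 (SD 0.34, 2330.5 against 3373 CPM, both pairs lower, exact permutation p = 0.5, the smallest possible). Over all 5 pairs, 3 of which rest on 5 cells or fewer in at least 1 library, the difference was -1.04 (SD 0.80, means 1850 and 3501 CPM, lower in 5 of 5, exact permutation p = 0.062, the smallest possible), and -1.18 without Cebpb. Classical genes gave 0.26 over 2 pairs (SD 0.37, exact permutation p = 1) and 0.24 over 5 (SD 0.30, exact permutation p = 0.25). For APP/PS1 only 1 pair had 10 cells on both sides, with log2 differences of -0.33 for classical and -0.24 for non-classical genes and no test. Over all 4 pairs these were 0.11 (SD 0.33) and -0.09 (SD 0.57), and the classical difference thus changed sign. For 9 against 3 months all 4 genotypes were lower in the non-classical sum (-1.35 on the log2 scale, exact permutation p = 0.12, the smallest possible; -0.96 without Cebpb). Sums alone cannot tell fewer cells of a subset from less RNA per cell. Cells with more non-classical than classical UMIs numbered 7 of 15 in APP/PS1 3 m and 4 of 46 in Nlrp3KO APP/PS1 3 m. In WT and Nlrp3KO they were 6 of 14 and 2 of 5 at 3 months, and 2 of 40 and 0 of 12 at 6 months. No library of 9 months held any. The 3 monocytes of WT 9 m held 0.0122, 0.0778 and 0.741% of their UMIs on non-classical genes. The part of each was not tested.

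Gene by gene, Nlrp3 deletion gave no call in monocytes. Of 4525 genes tested with edgeR over the 2 pairs with at least 10 cells, 0% (0 genes) passed an adjusted p of 0.05 and a 2-fold change, with 156 at an unadjusted p under 0.05. DESeq2 also gave 0, with 18 at an unadjusted p under 0.05. With the size factors of DESeq2 in edgeR, 4 genes passed, Ace and the heat shock gene Hspa1a among them (adjusted p = 0.0317 for both). Nlrp3 itself, at 0 UMIs in both Nlrp3KO libraries, was not called (log2 fold change -6.51, which is no bound, edgeR adjusted p = 0.667), so a gene lost at this level of counts did not pass in this fit. None of 13 classical and 12 non-classical genes tested passed. The non-classical ones were negative in 11 of 12, with a median log2 fold change of -0.82 beside -0.01 over all genes. Ly6c2 gave 0.55 and Ccr2 0.29. Ace was at 11.5 and 0 CPM in WT 6 m and Nlrp3KO 6 m, and at 319 and 32.8 in APP/PS1 3 m and Nlrp3KO APP/PS1 3 m. Its log2 fold change was -3.34 (SE 0.45), with an edgeR adjusted p of 0.0788 that ran from 1.57e-08 to 0.9998 over the alternatives, and over pairs with at least 5 cells the sign turned without the 3-month APP/PS1 pair (0.18). Hspa1a, which tissue handling also induces, was at 34.4 and 0 CPM and at 164 and 10.9 in the same pairs. Its log2 fold change was -4.01 (SE 0.57, edgeR adjusted p = 0.0788, from 7.48e-07 to 0.9998 over the alternatives).

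APP/PS1 gave no call either. Over 2 pairs at 3 months with at least 5 monocytes on each side, 0% of 2585 genes passed with edgeR (50 at an unadjusted p under 0.05), and 0 with DESeq2 (1 at an unadjusted p under 0.05). Plac8 had a log2 fold change of 0.16, Ccr2 0.40, Ly6c2 -0.21 and Chil3 -0.66, none past the test. Interferon-stimulated genes were positive in 6 of 8 tested, with a median of 0.23 beside -0.01. The chemokine gene Cxcl10, chosen after its values were seen, was at 17.0, 0, 139 and 258 CPM in WT, Nlrp3KO, APP/PS1 and Nlrp3KO APP/PS1 at 3 months (log2 fold change 3.94, SE 0.74, edgeR adjusted p = 0.9999).

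Between 3 and 9 months, 3 of 1341 genes (0.224%) passed, all lower at 9 months, over the Nlrp3KO and APP/PS1 pairs with at least 5 cells. They were H2-Eb1, a chain of MHC class II (log2 fold change -6.05, SE 0.51, edgeR adjusted p = 0.0302), Cebpb (-3.16, SE 0.30, edgeR adjusted p = 0.0302) and Apoe, which encodes a lipid carrier (-2.63, SE 0.28, edgeR adjusted p = 0.0382). In all, 90 genes had an unadjusted p under 0.05. With the size factors of DESeq2 none of the 3 passed (adjusted p of 0.0513, 0.0513 and 0.0704). Over all alternatives the adjusted p ran from 5.45e-46 to 0.202 for H2-Eb1, from 3.18e-14 to 0.0513 for Cebpb and from 1.44e-17 to 0.0704 for Apoe, the lowest each without a filter on low counts.

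H2-Eb1 rested on few cells. Its counts in monocytes were 263, 91, 744 and 224 UMIs in the 4 genotypes at 3 months, 2 and 33 at 6 months, and 67, 0, 7 and 0 at 9 months. In WT, a pair left out for its 3 cells at 9 months, the level was 2237 CPM at 3 months and 2283 at 9 months, so that genotype did not show the difference. All 6 MHC class II genes tested were negative, with a median of -3.78 beside -0.00 over all genes. Apoe was at 2000 to 5630 CPM at 3 months, 1091 to 1634 at 6 months and 461 to 2794 at 9 months, and the highest 9-month value, in WT, lay above 2 of the 3-month values.

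Cebpb was lower in the 9-month libraries in every type examined, not in monocytes alone. In Mono it was at 1633, 934, 1126 and 936 CPM at 3 months, 1086 and 1008 at 6 months, and 34.1, 114, 118 and 115 at 9 months in the order of genotypes above. The 9-month values did not overlap the others. In microglia it ran from 186 to 204 CPM at 3 months and from 7.58 to 48.5 at 9 months, in BAM from 266 to 357 and from 14.9 to 72.7, in Mono NC from 2735 to 3492 and from 295 to 1405, and in T cells from 36.9 to 47.5 and from 2.78 to 6.69. In 7 of 7 types all 9-month libraries lay below all others, against 1 of 7 for Apoe and 0 of 7 for H2-Eb1. The 7 types come from the same libraries, and the share of all genes with such a gap was not counted. The 9-month libraries form 1 batch, and age and batch cannot be told apart here.

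**Figure D5:**
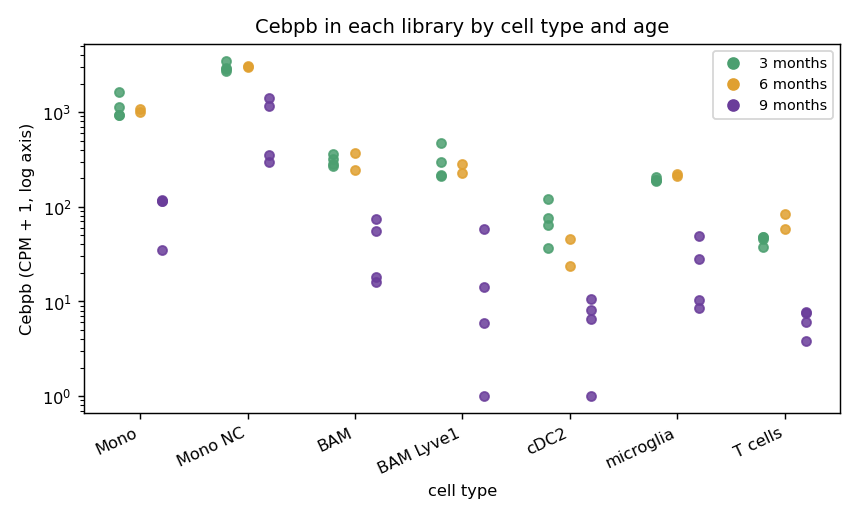
Cebpb in each library (points) by cell type (horizontal axis), as CPM + 1 on a log axis, coloured by age. In all 7 types the 9-month points lie below the 3- and 6-month points, in Mono at 34.1 to 118 against 934 to 1633 CPM at 3 months.

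The effect of Nlrp3 deletion in monocytes was then compared with that in microglia of the same libraries, in a fit that took all 10 libraries. Of 11103 genes, 34 (0.306%) had a different effect, 22 higher and 12 lower in monocytes relative to microglia, with 594 at an unadjusted p under 0.05. The sums behind it are unequal, with 1 to 46 monocytes against all microglia of a library, and with at least 5 monocytes on each side of a pair only 5 genes were called. Igkc was among the 34, higher in 2 of 5 pairs (log2 difference 5.48, edgeR adjusted p = 1.13e-06). Of the immunoglobulin UMIs in monocytes, 98.1% came from 1 cell of Nlrp3KO APP/PS1 3 m, on which this call largely rests. Cell cycle genes were called higher in 4 of 8. Their difference was positive in 3 of 5 pairs. The summed level in monocytes was higher with the deletion at 3 months (2379 against 221 CPM in non-diseased and 810 against 284 in APP/PS1 libraries) and in the 9-month non-diseased pair (4214 against 988). It was lower in the 6-month pair (436 against 629) and the 9-month APP/PS1 pair (229 against 272). The 2379, 4214 and 988 each rest on 5 monocytes or fewer. The 229 rests on 1 monocyte of 8727 UMIs, where a count of 0 allows up to 344 CPM. Non-classical genes were called lower in 2 of 14, all 14 with negative values (median -1.13 beside -0.02). Among single genes, Hist1h1b, a linker histone of dividing cells, had a log2 difference of 2.91 (SE 0.48, edgeR adjusted p = 5.02e-06). It was higher in monocytes of the Nlrp3KO library in 4 of 5 pairs and had 0 UMIs on both sides of the 9-month APP/PS1 pair. Bcl2a1d, an anti-apoptotic gene with near-identical copies, had -4.08 (SE 0.80, edgeR adjusted p = 0.000595), from 46 monocyte UMIs in the 5 Nlrp3WT libraries and 3 in the 5 Nlrp3KO libraries. Tnf, the inflammatory cytokine, had 15 UMIs in monocytes with Nlrp3 and 0 of 727343 without it. Of the 15, 8 came from APP/PS1 3 m, and WT 9 m also had 0. Mono NC cells of the Nlrp3KO libraries held Tnf at 29.6 and 11.1 CPM at 3 and 6 months and 208 at 9 months. In those of Nlrp3KO APP/PS1 it was at 56.5 CPM at 3 months and 0 at 9 months.

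For APP/PS1 the same kind of fit took the 8 libraries of 3 and 9 months. It called 14 of 11101 genes (0.126%), 2 higher and 12 lower in monocytes relative to microglia. There were 524 at an unadjusted p under 0.05, and 1 call with at least 5 monocytes. Ly6c2 had a log2 difference of -3.06 (SE 0.61, edgeR adjusted p = 0.00121). Its level in monocytes was 926 to 2482 CPM in APP/PS1 libraries and 545 to 2513 in the others of 3 and 9 months, which overlap. In microglia it was 4.62 and 2.89 CPM in the APP/PS1 and Nlrp3KO APP/PS1 libraries of 9 months and at most 0.941 elsewhere.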

How the data were processed

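CD45+ cells from whole mouse brain were profiled by droplet single-cell RNA sequencing (3' chemistry). The authors aligned reads to mm10 with Cell Ranger, removed outlying cells, clustered the rest and named the clusters, and deposited UMI counts per gene and cell with an annotation. That deposited annotation also holds a doublet score, the percent of mitochondrial UMIs and the fraction of ribosomal UMIs; the doublet caller is not given in the sources used here, and no cell was removed for its score in the main results. The matrix held 31053 genes and 52369 cells, of which 6897 in 2 sample names that no label covers were left out.

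Here, counts of the 149 Mono cells and of each other type were summed per library. Libraries with at least 10 cells of each type (5) entered the comparison of types, which was described as ratios of CPM + 1, for genes with a mean of at least 10 CPM in either type, and not tested. Shares and list sums were compared by exact two-sided sign-flip permutation over pairs of libraries that differ only in the factor tested. Genes were tested with edgeR 4.0.16 (TMM, quasi-likelihood test, pair as a block, Benjamini-Hochberg adjustment, adjusted p of 0.05 and 2-fold), and with DESeq2 1.42.0 as an alternative, in R 4.3.3. The planned minimum of 10 cells left 1 pair for APP/PS1 and none for age, so 5 cells were used there, a choice made after seeing the data. Each gene fit on monocytes alone held 2 pairs and left 1 residual degree of freedom. The effect in monocytes minus that in microglia was an interaction term over all libraries. Pairs come from the labels' age and genotype, and the libraries carry no replicate numbers. Since each group is 1 pool, the permutation p-values measure the spread between these pools. Those of edgeR rest largely on a spread shared over genes, and not on each gene's own spread between pools. Counting intervals are 95% exact binomial, a count of 0 was given an upper limit of 3 UMIs, and cells were thinned to 1500 UMIs for shares of cells. The code was tested on simulated data.

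The members and gene lists were chosen with earlier results of these data known. Named genes were those of the lists and the 10 largest changes among genes called with the same sign in every pair. That sign was taken from log2 CPM with a prior count of 2. In the comparison with microglia a pair without monocyte UMIs thus also has a sign. The 15 genes with the largest smallest ratio of Mono over BAM, BAM Lyve1, cDC2 and microglia at 50 CPM or more were named too. Of the list genes, 2 were not analysed here, and values of a few other genes are not reported here, though list counts and medians include them.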

Additional observations from a re-analysis of the deposited data

Results flagged for a closer look

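Of 54 sets of libraries examined for a library far from its group, 3 held one, where chance gives about 1 in 20. Monocytes made up 0.949% of cells in WT 6 m, against 0.0801 to 0.285% in the other non-diseased libraries. The cell cycle genes summed to 810 CPM in monocytes of Nlrp3KO APP/PS1 3 m, against 229 to 284 in the other APP/PS1 libraries, the 229 from 1 monocyte. Plac8 stood at 622 CPM in the 5 monocytes of Nlrp3KO 9 m, against 2435 to 3513 in the other non-diseased libraries.

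For 13 genes the interaction test in edgeR found an effect in monocytes that differed from that in microglia. For Nlrp3KO against Nlrp3WT the log2 differences were -10.57 for Tnf, 4.54 for Fbxo5, -4.08 for Bcl2a1d, 3.89 for Kif20b, -3.14 for Smpdl3b, 2.91 for Hist1h1b, -2.40 for Bcl2a1b, -1.77 for Pilra, -1.76 for Cyp4f18 and -1.70 for Slamf8, with adjusted p from 5.02e-06 to 0.0282. For APP/PS1 against non-diseased libraries they were -3.06 for Ly6c2, -2.87 for Hpse and -2.37 for H2-Eb1, with adjusted p from 0.00121 to 0.0222. The fitted value of Tnf is no bound, because monocytes held 0 UMIs of it in the Nlrp3KO libraries. Not every pair of monocyte libraries showed the difference. Fbxo5, Kif20b and Hist1h1b had 0 UMIs in monocytes on both sides of the 9-month APP/PS1 pair, as did Tnf in the 9-month non-diseased pair and H2-Eb1 in the 9-month Nlrp3KO pair. Slamf8 went from 213 to 229 CPM in the 9-month APP/PS1 pair, against its fitted direction. The genes of the APP/PS1 comparison also rose in monocytes of some pairs. Hpse went from 68.1 to 94.5 CPM in the 9-month WT pair and from 50.8 to 115 in the 9-month Nlrp3KO pair. Ly6c2 went from 545 to 2482 CPM in the 9-month WT pair, and H2-Eb1 from 2237 to 3706 in the 3-month WT pair. Apart from the pair at 0 UMIs, each was lower with APP/PS1 in the remaining pairs. Bcl2a1b and Bcl2a1d are near-identical copies, and reads shared by both are uncertain. In microglia Hpse stood at 6.07 and 12.2 CPM and H2-Eb1 at 44.6 and 39.0 in the APP/PS1 and Nlrp3KO APP/PS1 libraries of 9 months. A further 12 cells annotated Mono came from the 2 sample names that no label covers and were not analysed here.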

How the results depend on the processing

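Few monocytes limit every value, with 5 cells or fewer in 4 of 10 libraries. The 13 genes named from the interaction tests kept their direction, and each lost its call under at least 2 alternatives. For Nlrp3KO in monocytes, calls numbered 0, but 4 with DESeq2 size factors, 28 without a filter on low counts, 1 with Mono and Mono NC together, and 0 to 3 leaving out a pair at 5 cells, the 3 without the 3-month APP/PS1 pair. Ace then turned to 0.18. APP/PS1 gave 7 calls without the filter. Age gave 0 with DESeq2 size factors and 23 without the filter. The Nlrp3KO interaction gave 5 calls at 5 cells and 7 to 76 leaving out a pair (7 without the 9-month non-diseased pair, 76 without the 6-month one). The APP/PS1 interaction gave 9 calls with DESeq2 size factors, 1 at 5 cells and 4 to 19 leaving out a pair. The APP/PS1 difference in share turned to -8.79 points over Mono and Mono NC cells, and to -0.30 as a log odds of Mono against Mono NC. The classical sum for APP/PS1 turned from -0.33 in 1 pair to 0.11 over all pairs (0.0037 to 0.25 leaving out 1, with 0.047 and 0.12 between) and 0.12 without Ly6c2, and the non-classical sum to 0.12 without the 9-month WT pair. Genes higher in Mono than in Mono NC numbered 155 to 193 and genes lower 216 to 301 leaving out a library, the highest without WT 3 m. Other leave-one-out counts over types stayed within 1.5 times. The causes were not tested. A minimum of 20 cells, and leaving out 1 of 2 pairs, left no fit and were not run. The pairing by age and genotype was part of the main fits on monocytes alone. The comparison with microglia had library as its block and no term for the pair.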

Other observations

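Interferon-stimulated genes separated the monocyte kinds in part. Of 12, Ifit3 and Usp18 were at least 2-fold higher in Mono than in Mono NC in all 5 libraries, at 65.0 ± 34.2 against 9.86 CPM and 36.0 against 2.25. Bst2, which encodes the virus-tethering protein tetherin, was lower in Mono (253 CPM) than in BAM (883). Of 8 inflammasome genes, none differed by that measure from BAM, cDC2 or microglia, nor any of the 7 compared with Mono NC. Nlrp3 could not be called by it at any level. Nlrp3KO APP/PS1 3 m and Nlrp3KO 6 m are among the 5 libraries and held 0 CPM of it in each of these types. Il1b alone was higher than in BAM Lyve1. Against Mono NC only 1.55% of all genes were higher and 2.31% lower, so so short a list says little. Il1b had a median of 54.6 CPM over the 10 Mono libraries and 308 in Mono NC. It was in 22.1% of Mono and 59.4% of Mono NC cells (8.72 and 31.9% after thinning). Pycard, which encodes the adaptor ASC, stood at 361 CPM in Mono and 506 in microglia. Il1b in monocytes was at 204, 282, 359 and 85.3 CPM in WT, Nlrp3KO, APP/PS1 and Nlrp3KO APP/PS1 at 3 months, 17.2 and 23.8 in WT and Nlrp3KO at 6 months, and 0, 0, 23.6 and 115 at 9 months, the last from 1 cell.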
